A study of Drosophila melanogaster with 4 samples.

Results

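The histone gene complex of Drosophila melanogaster is a tandem array on chromosome arm 2L in which the same small set of genes recurs about every 5 kb. In a genome-wide peak list from chromatin immunoprecipitation (ChIP) of the tagged nuclear receptor Ultraspiracle (USP), 59 of 1540 peaks lay over it. They were chosen by position, as all 2L peaks that overlap a window of 130 kb over the complex in FlyBase release 5, the build named in the file header, and moving both borders of the window out by 20 kb adds none. They made up 19.5% of the 303 peaks on 2L and 3.83% of the list. Since positions in these peak calls chose the members, their positions, widths and scores are descriptions, and no test was made on them.

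The repeat carries the genes for the linker histone (His1) and for the core histones His2A, His2B, His3 and His4. His3 and His4 form the centre of the nucleosome, His2A and His2B complete it, and His1 binds the DNA between nucleosomes. These genes are replication-dependent: they are switched on in S phase, their transcripts end in a stem-loop in place of a poly(A) tail, and they are transcribed in a nuclear compartment, the histone locus body. Early fly embryos divide fast and draw on large histone supplies, first from maternal stores and later from this array. USP, the fly RXR, pairs with EcR, and the pair binds DNA as the receptor for the moulting hormone ecdysone.

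Chromatin came from embryos of 0 to 12 h of the strain USP-GFP. The labels give PBac{y[+]-attP-3B}VK00033 as the genotype and the genomic coding region of USP as the transgene, for ChIP and Input libraries alike, and the collection step names y; bw cn sp flies. Embryos were fixed in 1.8% formaldehyde for 15 min. A rabbit polyclonal antibody against green fluorescent protein (GFP) pulled down the tagged protein in 2 ChIP libraries, beside 2 Input libraries of genomic DNA. The labels do not say whether libraries of a kind came from separate embryo collections, or which driver or promoter controls the transgene. The chromatin was from whole embryos, so every tissue of the stage contributes.

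A single peak list of the whole series was analysed. It has no value per library, so no value below has a replicate error, and sequencing depth is unknown. It names no gene, so that these peaks lie over the histone genes rests on the position of the complex. The sources used here do not say how reads that match several copies of the repeat were placed. A peak in one unit therefore cannot be credited to that unit alone, and units are not replicates.

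The gene order of the array was read from a RefSeq gene table of another assembly, Release 6, whose coordinates were not used. That table lists 23 copies of His1, 20 of His2A, 23 of His2B, 23 of His3 and 22 of His4 on 2L, 111 genes in all, and 8 histone pseudogenes. With small noncoding RNAs left out, all 23 His1 copies were followed by His2B, and all 22 His4 copies by His3. His2B was followed by His2A in 20 of 23 copies. The order His1, His2B, His2A, His4, His3 occurred whole 19 times, and 3 more times with a pseudogene in the place of His2A. No peak was assigned to one of these genes, since the list is on another build.

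The peaks began at 21416791 and ended at 21538580, a span of 122 kb of which they covered 31.6 kb, or 26.0%. The first peak, at 21416791 to 21417044, was 254 bp wide with a score of 11.48. The last, at 21537788 to 21538580, was 793 bp wide with a score of 18.42. The score is the authors' own value per peak. The sources used here do not define it, and it serves only to rank and describe peaks within this list.

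No other peak of the arm lay close to the array. The nearest peak to its left, at 21252428 to 21252937 (score 11.32, 510 bp), ended 164 kb before the first array peak. The nearest to its right, at 21573305 to 21573796 (score 9.46, 492 bp), began 34.7 kb after the last. Elsewhere on 2L, groups of peaks joined across gaps of up to 1 kb had midpoints a median of 63.3 kb apart, so the distance to the right was not a long one for the arm. To the left of the array 2L held 236 peaks, and to its right 8.

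Within the array, peaks came in clearly separated groups. Of the 58 gaps between neighbours, 36 were short, from 50 to 967 bp with a median of 206.5 bp, and 22 were long, from 2.10 to 11.2 kb with a median of 3.37 kb. No gap lay between 1 and 2 kb. Joining peaks across gaps of up to 1 kb therefore gave 23 groups, of which 3 held 1 peak, 6 held 2, 12 held 3 and 2 held 4. A group spanned 610 to 3345 bp (median 1793 bp), and its peaks covered 610 to 2351 bp (median 1425 bp). His1, His2B and His3 are also listed in 23 copies, but the 2 counts come from different releases and no group was matched to a gene copy.

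**Figure D1:**
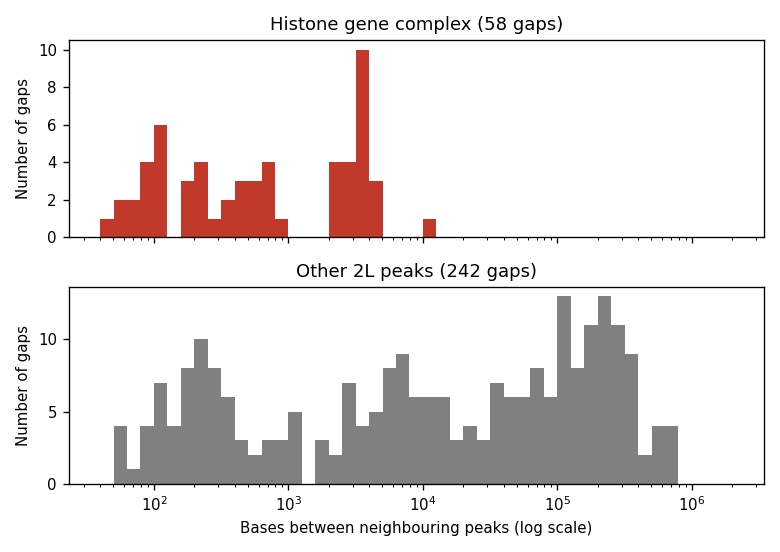
Number of gaps by the bases between neighbouring peaks (log scale), for the 58 gaps in the histone gene complex (top) and 242 gaps between other 2L peaks (bottom). Array gaps fall into a short class of up to 967 bp and a long class from 2.10 kb, while gaps elsewhere on 2L reach far longer distances.

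Other peaks of 2L were spaced differently. Of their 242 gaps, 63 were up to 1 kb, 8 lay between 1 and 2 kb, and 157 were longer than 4.22 kb, the longest array gap but one. Joined in the same way, they made 181 groups, and 8 of 179 steps from one group midpoint to the next (4.47%) measured 4 to 6 kb. In the array this held for 21 of 22 steps (95.5%).

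The groups recurred at a period of 4998 bp, found by taking the centres of peaks merged within 500 bp (31 intervals) and searching periods of 2 to 10 kb. The mean phase vector, which is 1 for a perfect period, had a length of 0.73. The period was chosen for the longest vector, so positions without a period would not give 0, least of all with few intervals. The length they would reach was not computed. Steps between neighbouring group midpoints measured 5052 ± 457 bp (SD, 21 steps), from 4122.5 to 5798 bp, leaving out the step across the longest gap. The array is known for a repeat of about 5 kb. The SD of the steps was larger than the median peak width of 378 bp. Group midpoints shift with the peaks called in each group, so this SD is not the spread of the repeat alone.

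Cut into units of 4998 bp from the first base of the first peak, the span of 24.4 periods reached into 25 units, of which the last was entered by 1837 bp only, and 24 of the 25 contained the centre of at least 1 peak. The sixth unit was empty. The seventh held a single peak at its very end, 21451258 to 21451855, which belongs to the group of the next unit. In terms of whole groups, 2 successive units thus lacked one.

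**Figure D2:**
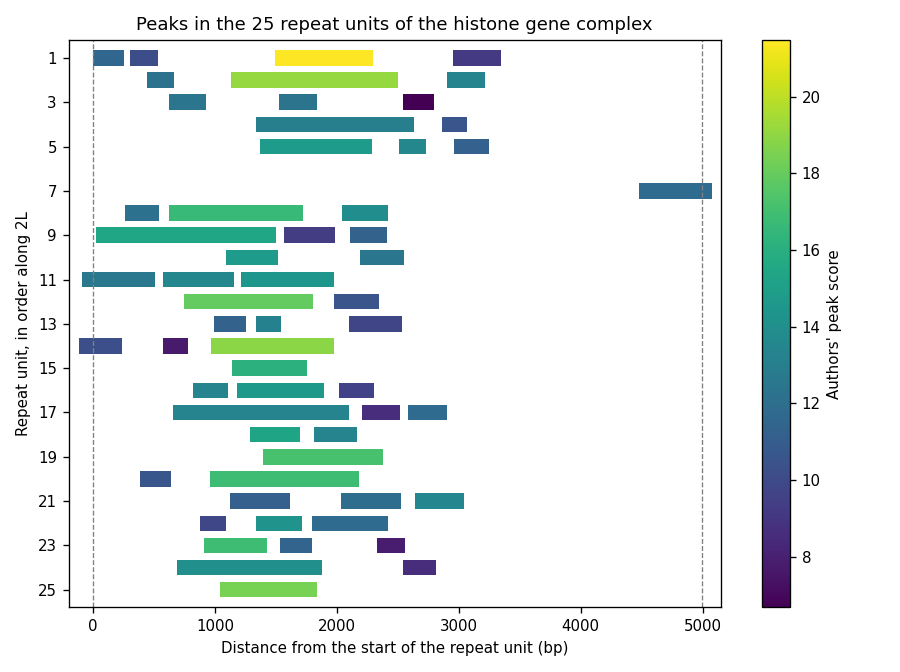
Each bar is 1 peak, drawn by its distance in bp from the start of its repeat unit of 4998 bp (horizontal) in the 25 successive units along 2L (vertical), and coloured by the authors' peak score from 6.68 to 21.47. Dashed lines mark the unit's borders. Most units have a peak near 1500 bp, few have one at the left edge, unit 6 is empty, and no peak covers 3345 to 4478 bp in any unit. The span of the peaks ends 1837 bp into unit 25.

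The missing groups lay in one stretch. No peak was called from 21440031 to 21451257, which is 11.2 kb or 2.25 periods. The peak before it, at 21439743 to 21440030, had a score of 11.24 and a width of 288 bp, and the peak after it had a score of 11.78 and a width of 598 bp. Both lay within the array's usual range. The group midpoints on either side were 13632 bp apart, 2.73 periods, which is 1362 bp short of 3 whole periods. Midpoints shift with the outer peaks of a group. The highest-scoring peak was centred 1830 bp from the unit start in the last group before the stretch. In the first group after it, the highest-scoring peak was centred at 1169.5 bp, a smaller shift. Whether release 5 has histone genes, other sequence or unsequenced bases in this stretch was not analysed here.

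The position in the unit was compared between the 5 groups before this stretch and the 18 after it. The highest-scoring peak of a group was centred at a median of 1830 bp from the unit start before it (775 to 1985.5 bp) and 1444 bp after it (760.5 to 2841.5 bp). The ranges overlapped only through group 3 before the stretch (775 bp) and groups 17 and 19 after it (1884.5 and 2841.5 bp). The other leading peaks lay at 1817 to 1985.5 bp before it and at 760.5 to 1594 bp after it. The difference of the medians, 386 bp, was not tested. Both sides were cut at 4998 bp, so the difference depends on this period and on the length of the stretch. An effect of these cannot be told apart from a shift within the repeat. The 22 merged intervals after the stretch had a period of 5033 bp and a vector of length 0.85. The 9 intervals before it gave 5209 bp and 0.59. Peak scores had a median of 12.29 before the stretch (15 peaks, 6.68 to 21.47) and 12.86 after it (44 peaks, 7.69 to 18.88), and median widths were 297 and 417.5 bp.

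Peaks were concentrated in one stretch of the unit and absent from another. Units were cut at the period that best aligned these same peaks, so some concentration arises from that choice, and its amount was not computed. Positions are counted from 0 at the first base of the first peak, an arbitrary start that is not tied to a gene. Coverage was highest between 1392 and 1619 bp, where up to 21 of 25 units had a peak, against 2 to 6 units over the first 500 bp. It dipped to 10 units at 1978 bp and rose again to up to 14 units between 2097 and 2286 bp, with 12 units at 2180 bp. From 3345 to 4478 bp, 1134 bp or 22.7% of the unit, none of the 24 units that lie whole within the span was covered by a peak. Both the 24 and the 25 units count the empty sixth and the seventh, whose single peak lies at its very end.

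**Figure D3:**
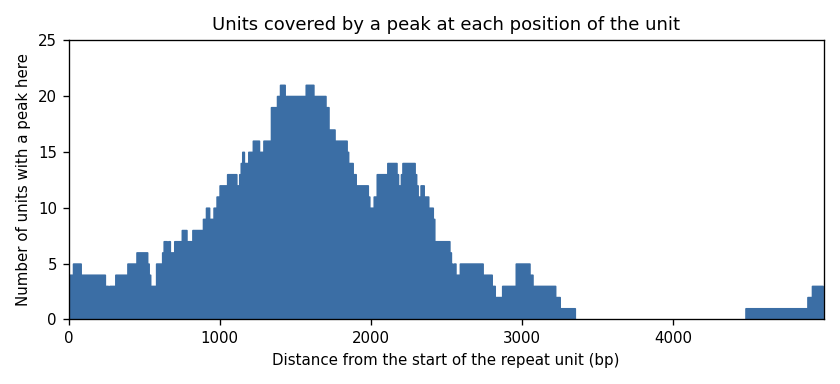
Number of repeat units in which a peak covers each position, by distance from the unit start in bp, over 24 whole units and the first 1837 bp of the 25th. The count reaches 21 between 1392 and 1619 bp and is 0 from 3345 to 4478 bp. Between 2097 and 2286 bp it reaches 14 units, with a dip to 12 at 2180 bp.

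In 5 equal bins of the unit, the first placed where most centres fall, 28 of 59 peaks (47.5%) were centred in the bin from 1167 to 2167 bp. The bin was chosen for this count, so the share is no measure of concentration. Its peaks came from 23 units, and their medians were 667.5 bp in width and 14.53 in score. The next bin, to 3166 bp, held 16 peaks with medians of 310 bp and 11.26. The bin after that held none, the one up to 167 bp of the following unit held 3, and the last, from 167 to 1167 bp, held 12 with medians of 270 bp and 12.18. The last bin also held the widest peak of the array, 1476 bp, centred at 760.5 bp. The centre of the pattern otherwise carried the wide peaks, 8 of the 9 that were 1 kb or wider, and its flanks carried narrow ones.

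The same was seen group by group. The highest-scoring peak was also the widest in 16 of the 20 groups with more than 1 peak. It was centred in the fullest bin in 20 of 23 groups, of which 3 held a single peak. The bin was placed by centres that include these peaks, so this count is no separate support. These leading peaks had scores of 12.43 to 21.47 (median 15.31) and widths of 201 to 1476 bp (median 801 bp). The other 36 peaks scored 6.68 to 13.86 (median 11.275), lower by the choice of the leading peak, and were 204 to 624 bp wide (median 304 bp).

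Flanking peaks lay on both sides of the leading peak, at a single common distance on neither. To the right of the leading peak, that is at higher coordinates, 21 peaks in 16 groups had their centres 495.5 to 1897.5 bp away, with a median of 1014.5 bp. To its left, 15 peaks in 10 groups were 315 to 1770.5 bp away, with a median of 1054 bp. Within 200 bp of the median of their side were 8 of the 21 right-hand peaks but 1 of the 15 left-hand peaks, of which 7 lay closer and 7 farther. Both sides were present in 6 groups. The medians of score and width were 11.24 and 314 bp for right-hand peaks and 11.48 and 275 bp for left-hand peaks.

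Along the array, the first groups held both the highest and the lowest scores. Group 1, from 21416791 to 21420135, had peaks scored 11.48, 10.11, 21.47 and 9.16 in order along the arm. Group 2, from 21422231 to 21425004, had 12.17, 19.11 and 13.37. Group 3, from 21427414 to 21429586, had 12.43, 12.29 and 6.68. In groups 1 and 2 an inner peak stood well above its neighbours, while group 3 had the lowest leading score of all 23 and the lowest score of the array. Group 4, from 21433122 to 21434850, had a wide peak of 12.98 and a narrow one of 10.59. Group 5, from 21438157 to 21440030, had 14.73, 13.52 and 11.24, in falling order.

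After the empty stretch, group 6, from 21451258 to 21454193, had 4 peaks scored 11.78, 12.19, 16.64 and 13.86. Group 7, from 21456798 to 21459183, had 15.46, 9.32 and 11.28, and its first peak was the widest of the array. Group 8, from 21462866 to 21464321, had 14.72 and 12.46. Groups 6 and 7 had the most bases in peaks, 2351 and 2203 bp, with leading scores in the middle of the range. Group 9, from 21466684 to 21468748, had 12.62, 13.51 and 14.46, rising along the arm. Group 10, from 21472513 to 21474114, had 17.93 and 10.60. Group 11, from 21477759 to 21479297, had 11.27, 13.10 and 9.72, and its leading peak, at 201 bp, was the narrowest of the array.

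In the middle of the array, groups ranged from a single peak to 3. Group 12, from 21481648 to 21483737, had 10.22, 7.69 and 18.88. Group 13 was 1 peak of 16.11 at 21487905 to 21488514. Group 14, from 21492580 to 21494065, had 13.38, 14.60 and 9.61. Group 12 thus held one of the highest and one of the lowest scores within 2090 bp, and group 13, at 610 bp, was the smallest. Group 15, from 21497417 to 21499659, had a 1442 bp peak of 13.38 followed by narrow peaks of 8.53 and 11.78. Group 16, from 21503044 to 21503925, had 15.31 and 13.37. Group 17 was 1 peak of 17.14 at 21508147 to 21509132. The leading peak opened groups 15 and 16 and stood alone in group 17.

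The last 6 groups held 1 to 3 peaks each. Group 18, from 21512140 to 21513932, had 10.61 and 16.88. Group 19, from 21517874 to 21519794, had 11.12, 11.92 and 13.44, and its leading peak lay farthest right in the unit, at 2841.5 bp. Group 20, from 21522630 to 21524165, had 9.84, 14.29 and 11.78. In groups 19 and 20, as in 3 and 11, the leading peak was not the widest. Group 21, from 21527655 to 21529305, had 16.86, 11.38 and 7.89. Group 22, from 21532438 to 21534560, had 14.05 and 8.55. Group 23, the last, was the single peak of 18.42.

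**Figure D4:**
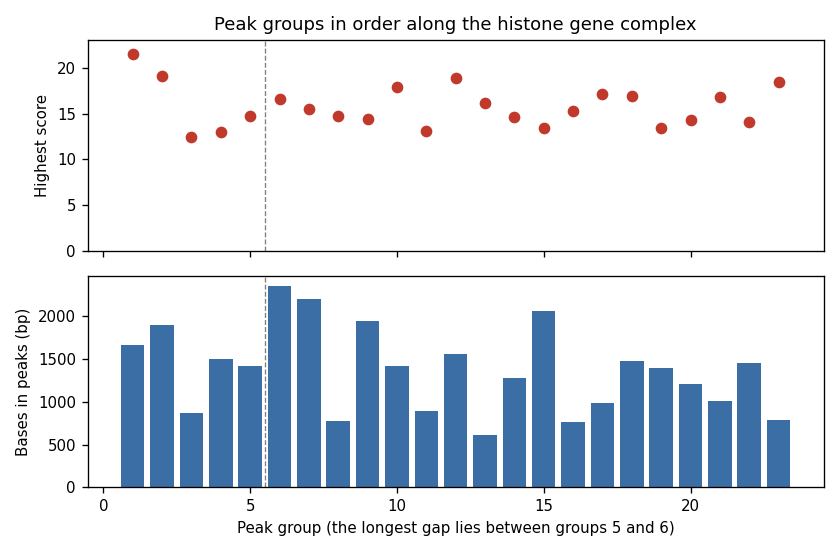
Highest score (top) and bases covered by peaks in bp (bottom) for the 23 peak groups in order along the array, with a dashed line at the longest gap. Highest scores stay between 12.43 and 21.47, and covered bases between 610 and 2351 bp.

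Neither measure rose or fell steadily along the array. Over the 23 groups, Spearman's rho of order was -0.04 with the highest score and -0.37 with the bases in peaks, and rho of these 2 measures with each other was 0.13. These are descriptions of points that share libraries and near-identical sequence. The 59 peaks had 56 different widths and 55 different scores. Values on such fine scales rarely coincide, so these counts do not show that the units differ.

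The 5 highest scores were all leading peaks. They were 21.47 at 21418288 to 21419088 (801 bp), 19.11 at 21422923 to 21424289 (1367 bp) and 18.88 at 21482737 to 21483737 (1001 bp), then 18.42 in the last group and 17.93 at 21472513 to 21473570 (1058 bp). The 5 lowest were all flanking peaks of 204 to 306 bp, with scores of 6.68 at 21429333 to 21429586, 7.69 at 21482341 to 21482544, 7.89 at 21529074 to 21529305, 8.53 at 21498968 to 21499273 and 8.55 at 21534287 to 21534560. Leading peaks were chosen by score, so it largely follows that they hold the highest scores and flanking peaks the lowest. The highest score of the array ranked 66 among the 303 peaks of 2L.

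By width, the 5 widest were leading peaks, and 4 of the 5 narrowest were flanking peaks. Leading peaks were chosen by score, which rose with width in the array (Spearman's rho 0.68), so this is no separate result. The widest were 1476 bp at 21456798 to 21458273 (score 15.46), 1442 bp at 21497417 to 21498858 (13.38) and the 1367 bp peak of group 2, then 1298 bp at 21433122 to 21434419 (12.98) and 1221 bp at 21512712 to 21513932 (16.88). The narrowest were 201 bp at 21478106 to 21478306 (13.10), 204 bp at 21434647 to 21434850 (10.59), the 204 bp peak of score 7.69, 212 bp at 21522630 to 21522841 (9.84) and 221 bp at 21422231 to 21422451 (12.17). The 1367 bp peak was thus among the 5 highest and the 5 widest, and all 5 widest scored above the array's median of 12.46.

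Against the other 244 peaks of 2L, array peaks had like medians and lacked high scores. Their scores had a median of 12.46 (95% order-statistic interval 11.78 to 13.44) and an interquartile range of 10.9 to 14.5, against 13.575 (12.6 to 14.81) and 10.1 to 22.0. A score of 20 or more was reached by 1 of 59 array peaks (1.69%) and by 65 of 244 others (26.6%), whose scores ran to 361.49. Widths had a median of 378 bp (314 to 497 bp) in the array and 376.5 bp (336 to 468 bp) elsewhere. With peaks merged within 500 bp the median widths were 886 bp (31 intervals) and 470 bp (189 intervals), a difference of 416 bp where unmerged peaks differed by 1.5 bp.

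Wide peaks of the array had low scores for their width. Array peaks of 1 kb or more numbered 9 of 59 (15.3%), a share near the 36 of 244 (14.8%) elsewhere on 2L. Their scores lay between 12.98 and 19.11 (median 16.64). The 36 others scored 15.03 to 361.49 (median 50.575), and 35 of them scored above 21.47, the highest of the array. Among the 18 other peaks between 1 kb and 1476 bp, the widest of the array, the median score was 33.36 and 1 scored no more than 19.11.

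Typical widths differed less. The 179 other 2L peaks with scores within the array's range had a median width of 317 bp (298 to 332 bp), against 378 bp (314 to 497 bp) in the array, and the intervals overlapped. Their median score was 11.53, against 12.46, so the sets are not matched on score. A width of 1 kb was reached by 1 of the 179 (0.559%). Score and width rose together in the array (Spearman's rho 0.68, Pearson's r 0.65, 59 peaks) and among other 2L peaks (0.79 and 0.90, 244 peaks). Peaks of 1 list share libraries and caller, so these are descriptions. Read depth and the number of copies behind each peak are unknown, and their part in width and score was not tested.

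**Figure D5:**
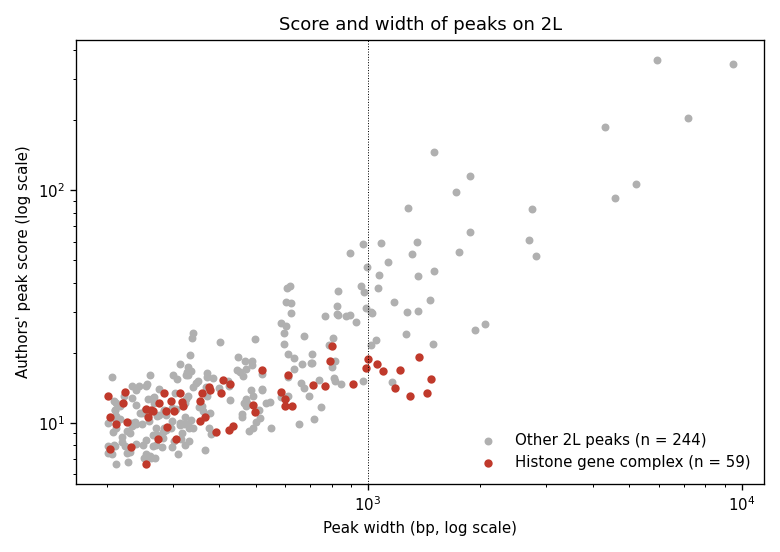
Authors' peak score against peak width in bp, both on log scales, for the 59 peaks of the histone gene complex (red) and 244 other 2L peaks (grey), with a dotted line at 1000 bp. To the right of the line the 9 array peaks lie between scores of 12.98 and 19.11, and 35 of the 36 other peaks there lie above the highest array score of 21.47.

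Other dense stretches of 2L were shorter than the array, and most had higher scores. Linked at centres under 5 kb apart, 5 other regions held 5 or more peaks, at most 11, over 5.72 to 10.8 kb. Peaks covered 51.9 to 86.4% of them. The whole array, with its long gaps, was covered to 26.0%. Its 23 groups, joined only across gaps of up to 1 kb, were covered to 40.0 to 100% (median 80.1%), and 3 of them are single peaks. These kinds of stretch were bounded by different rules, so the shares are not like for like. The highest scores of the 5 other regions were 15.03 to 106.09, and 1 of the 5 stayed below the 21.47 of the array. Over their 35 peaks the median width was 534 bp (336 to 718 bp) and the median score 14.08 (12.11 to 16.72).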

How the data were processed

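The 1 file used was a peak list of FlyBase release 5 with MACS as the caller, per the file headers and columns. Column 6 is the score the authors deposited for each peak, and columns 4 and 5 its first and last base, counted from 1. The submitters' processing notes name BDGP5 as the build and, among tools, BWA, MACS2 and the CASAVA versions 1.7.0.2 and 1.7.0.3. Settings, the libraries that entered the calls and any pooling are not given in the sources used here.

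With Python 3.11.15, numpy 2.4.6 and scipy 1.17.1, peaks overlapping 2L 21415000 to 21545000 were taken. Peaks were merged across gaps of up to 500 bp for the period, the one with the longest mean phase vector from 2 to 10 kb in 1 bp steps, and up to 1 kb for groups. The period search was tested on simulated data. Medians have 95% order-statistic intervals. No test was run. The region and measures were chosen with earlier results of these data known. Peaks were named by a rule: the first and last, the 5 highest, lowest, widest and narrowest, those beside the long gap and the nearest outside. Groups were listed in full. No sequence of release 5 was used here.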

Additional observations from a re-analysis of the deposited data

How the results depend on the processing

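Of 36 values under alternatives for 8 results, 26 moved by less than their tolerance, and 6 of the 36 were chosen after seeing the data. The tolerance was 1% for the period, 0.1 for the phase vector and 1.5 times for counts. It was the 95% interval for the share in the fullest bin and for rho. For differences of medians it ran between opposite ends of the 95% intervals of the 2 medians, wider than a 95% interval of the difference. These limits were -154 to 161 bp for width and -3.03 to 0.84 for score. The period stayed between 4975 and 5033 bp, except for 5209 bp in the groups left of the longest gap alone, a set of 9 intervals. The phase vector was 0.57 for peaks as listed and also 0.57 for first bases, 0.90 after merging within 1 kb, 0.85 right of the longest gap and 0.59 left of it. The fullest 20% of the unit held 70.0% of peaks at or above the array's median score and 64.5% of peaks merged within 500 bp. The width difference was 416 bp after merging within 500 bp and -156 bp against other dense 2L regions, and its sign also turned, at -9.5 bp, against all other major arms. The cause of these shifts was not tested. Units with a peak numbered 22 to 24. No paired analysis was possible because the list has no value per library, which also prevents leaving one out. The motif search in histone promoters was not run, since no release 5 sequence was used here. The unknown depth limits every count of peaks and of units without one.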
